A study of Mus musculus with 56 samples.

Results

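The genes described here are Nppa, Nppb, Bmp10, Myl7, Myl4 and Sln, 6 of the 22864 genes listed in a time series of mouse heart RNA. They were chosen by symbol, as genes known for atrial expression together with the 2 cardiac natriuretic peptides, after earlier results of these data had shown a higher mean of Bmp10 under daytime feeding. That difference of Bmp10 is therefore given as a description with no test. The levels of Nppa, Myl7, Myl4 and Sln followed those of Bmp10 in part, so their tests of regimen are not independent of that choice.

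PolyA RNA was sequenced from hearts of female C57BL/6J mice, an inbred strain with no transgene, at 9 weeks of age. All mice lived on a cycle of 12 h light and 12 h dark and had spent 7 days on restricted feeding. Food was offered in the daytime in the DRF groups (daytime-restricted feeding) and at night in the NRF groups (nighttime-restricted feeding), which are the reference because mice eat mainly at night. Hearts were collected every 4 h over a day at 7 zeitgeber times (ZT0 through ZT24, where lights come on at ZT0), with 4 replicates in each of the 14 groups and 56 libraries in all. The labels name the heart but neither its chambers nor how it was trimmed, and they do not say that each replicate is a separate mouse, so the p-values measure the spread between these samples.

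Atrial cardiomyocytes differ from ventricular ones in the contractile and secretory proteins they make. Their myosin carries its own light chains, the regulatory MYL7 and the essential MYL4, where the adult ventricle uses MYL2 and MYL3. Sarcolipin, encoded by Sln, is a small membrane protein that restrains the calcium pump of the sarcoplasmic reticulum, a task done mainly by phospholamban (Pln) in the ventricle. Atrial cells also store atrial natriuretic peptide (Nppa) in granules and release it on stretch, and the hormone lowers blood volume and pressure through the receptor NPR1. B-type natriuretic peptide (Nppb) acts on the same receptor, but its gene is transcribed in the ventricle as well and responds quickly to load and hormones. BMP10 is a secreted growth factor of the TGF-beta superfamily that signals to endothelium through ACVRL1 (ALK1) and is made in the adult mainly by the right atrium.

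Nppb and Nppa are neighbours on chromosome 4 of genome build GRCm38, both on the plus strand (147985788 to 147987205 and 148000722 to 148002079), with 13516 bases between them. Bmp10 lies on chromosome 6 (87428994 to 87437677, plus strand), Sln on chromosome 9 (53850164 to 53854560, plus strand), Myl7 on chromosome 11 (5896637 to 5898782, minus strand) and Myl4 on the same chromosome (104550663 to 104595753, plus strand). Antisense genes overlap Nppa (Gm13054, mean 1.78 TPM) and Myl4 (Gm11665, mean 2.56 TPM, and Gm22000, mean 1.22 TPM), and since the use of strand in counting is not given in the sources used here, reads of these pairs cannot be told apart.

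The 250 bases before the RefSeq start of the neighbours Nppb and Nppa, of Myl7 and of Bmp10 are shown because these genes sit in the same libraries and yet differed in what they varied with. RefSeq (build GRCm38.p6) held such a window for 5 of the 6 genes, with none for Sln. The windows read 5′ to 3′ along the gene, from chr4:147985650-147985899 for Nppb, chr4:148000472-148000721 for Nppa, chr11:5898783-5899032 (minus strand) for Myl7 and chr6:87428744-87428993 for Bmp10. GENCODE M21 starts the Nppb gene 112 bases upstream of RefSeq, inside this window. Capitals mark the letters searched for on both strands, namely a GATA motif (AGATAA), an NKX2-5 motif (TNAAGTG), an E-box (CACGTG), an M-CAT element (CATTCC), a T-box motif (AGGTGT), a MEF2 motif, a D-box (TTATGTAA), a RORE core (AGGTCA) and a TATA box (TATAAA).
Nppb: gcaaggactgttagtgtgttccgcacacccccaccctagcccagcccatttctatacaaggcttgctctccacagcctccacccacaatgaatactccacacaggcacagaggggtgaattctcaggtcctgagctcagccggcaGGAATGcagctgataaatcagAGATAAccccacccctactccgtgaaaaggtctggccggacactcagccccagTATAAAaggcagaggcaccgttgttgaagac
Nppa: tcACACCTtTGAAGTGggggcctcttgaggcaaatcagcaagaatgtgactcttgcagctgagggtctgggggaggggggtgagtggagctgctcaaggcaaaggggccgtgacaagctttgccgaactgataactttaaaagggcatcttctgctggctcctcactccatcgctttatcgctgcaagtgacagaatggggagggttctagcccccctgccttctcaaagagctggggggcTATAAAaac
Myl7: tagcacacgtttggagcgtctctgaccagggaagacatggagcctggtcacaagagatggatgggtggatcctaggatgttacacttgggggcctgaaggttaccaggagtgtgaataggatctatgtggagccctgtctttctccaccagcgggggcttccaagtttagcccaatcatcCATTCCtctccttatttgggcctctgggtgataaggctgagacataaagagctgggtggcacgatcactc
Bmp10: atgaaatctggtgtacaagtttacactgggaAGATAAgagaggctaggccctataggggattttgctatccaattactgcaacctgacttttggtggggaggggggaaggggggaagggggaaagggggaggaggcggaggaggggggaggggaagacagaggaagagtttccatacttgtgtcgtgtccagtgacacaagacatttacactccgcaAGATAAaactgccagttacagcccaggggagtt

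The GATA letters began 84 bases before the start of Nppb and 219 and 33 bases before that of Bmp10, and 9.99% of the 32851 RefSeq windows of this length hold them. The M-CAT letters began 105 bases before the start of Nppb, on the opposite strand, and 70 bases before that of Myl7 (12.6% of windows). Nppa had the NKX2-5 letters 241 bases (10.1% of windows) and, on the opposite strand, the T-box letters 248 bases before its start (11.8%). TATA letters were 31 bases before the start of Nppb and 9 bases before that of Nppa (12.4% of windows). None of these motifs was found in the Myl4 window, and the E-box, MEF2, D-box and RORE letters were in none of the 5 windows, against 6.02%, 3.2%, 0.819% and 14% of all windows. A match or its absence is a statement on these letters alone.

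Levels are TPM, a share of transcripts corrected for gene length, computed again from the whole reads behind the deposited values. The libraries held 29.5 M to 53.1 M reads. No 2 libraries were identical. Tests were made with limma on log2(TPM + 1) in the 13890 genes whose mean reached 1 TPM, and a call is a Benjamini-Hochberg adjusted p under 0.05 over all of them. All 6 genes passed this filter. Ventricular genes were abundant in every library (Myl2 5729 to 10132 TPM), and the regimens' medians of the summed level of 9 ventricular markers were 13330 TPM (DRF) and 13345 TPM (NRF).

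Nppb fluctuated over the day under NRF, with its highest levels around lights on and its lowest at ZT12, and was flatter under DRF. At ZT0 the 4 NRF libraries held 1138, 703, 753 and 835 TPM. At ZT24 they held 773, 681, 1233 and 1169 TPM. At ZT12 they held 193, 157, 95.2 and 84.8 TPM. Every NRF library at ZT12 was below every NRF library of all other ZTs. Between these extremes the NRF levels were 354 to 498 TPM at ZT4, 204 to 620.4 TPM at ZT8, 213 to 324 TPM at ZT16 and 257 to 592 TPM at ZT20. The 24-h cosine fit gave a log2 amplitude of 1.16 (SE 0.13) and a peak at ZT0.417 (SE 0.477 h), with an adjusted p of 3.28e-07. From the fit, the peak was 4.98 times the trough (95% interval 3.52 to 7.04).

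**Figure D1:**
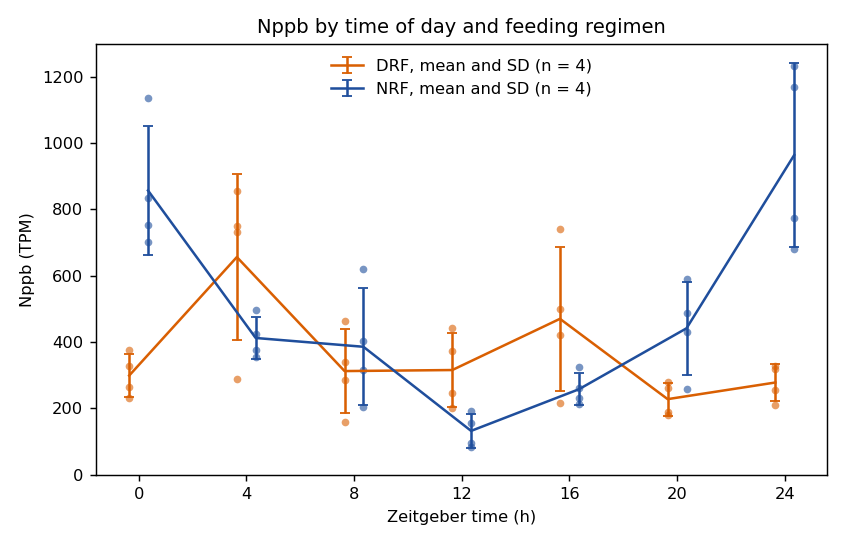
Nppb level in TPM (vertical axis, linear) against zeitgeber time in hours (horizontal axis), for DRF (orange) and NRF (blue). Small points are single libraries, and lines with bars are the mean and SD of 4 libraries. NRF means run from 964 TPM at ZT24 down to 132 TPM at ZT12, while DRF means stay between 228 and 657 TPM.

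Under DRF, Nppb had no 24-h rhythm by the same test (log2 amplitude 0.26, SE 0.18, adjusted p = 0.465, limma), and the interval of its peak-to-trough ratio was 0.887 to 2.32. At ZT0 the 4 DRF libraries held 230.4, 327, 264 and 375 TPM. At ZT12 they held 202, 246, 373 and 443 TPM. At ZT24 they held 209, 257, 328 and 319 TPM. The group means under DRF were highest at ZT4 (657 ± 251 TPM, SD, n = 4) and ZT16 (470.3 ± 218 TPM) and lowest at ZT20 (228 ± 50.1 TPM). The libraries of ZT16 (216 to 743 TPM) overlapped those of ZT12. A test of any difference among the 7 ZTs, which assumes no shape, called Nppb under DRF (range of group means 1.43 on the log2 scale, adjusted p = 0.0125) and under NRF (range 2.89, adjusted p = 2.79e-08). The DRF call rested on ZT4, since the adjusted p was 0.0538 without ZT4 replicate 4 and 0.246 without that time.

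The rhythm of Nppb differed between the regimens by the test of the interaction itself (adjusted p = 5.72e-05, limma). It was the 1 of 6 genes called in that test, where 27.5% of all genes tested were called. It was likewise the 1 of 6 called rhythmic under NRF (37.2% of all genes), and 0 of 6 were called rhythmic under DRF (32.3% of all genes). At an unadjusted p under 0.05 the DRF count was also 0. The fitted peaks lay 6.49 h apart (SE 2.37), a value of limited use because the DRF fit was not rhythmic.

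By time of day, the regimens differed in Nppb at 3 of 7 ZTs and in opposite directions. At ZT0 the DRF libraries were all lower than the NRF libraries, and the difference was -1.52 on the log2 scale (SE 0.34, adjusted p = 0.00204), an NRF level 2.86 times that of DRF. At ZT24, a day after ZT0 in the series, all DRF libraries were again lower, by -1.77 (SE 0.34, adjusted p = 0.000675), with NRF at 3.4 times DRF. At ZT12 all DRF libraries were higher, by 1.26 (SE 0.34, adjusted p = 0.0159), or 2.4 times the NRF level. The adjusted p at ZT12 rose to between 0.052 and 0.0748 without DRF replicate 3 or 4 or NRF replicate 3 or 4 of that time. Groups that did not overlap made up 15.5% of all genes at ZT0, 13.5% at ZT12 and 13.5% at ZT24, and called differences in either direction made up 11.5%, 7.64% and 8.84%.

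At the other ZTs the difference in Nppb was not past the threshold. It was 0.57 at ZT4 (95% interval -0.09 to 1.23), -0.29 at ZT8 (-0.95 to 0.37), 0.75 at ZT16 (0.09 to 1.41) and -0.91 at ZT20 (-1.58 to -0.25, adjusted p = 0.0584). Over all genes 0.446%, 0.353%, 6.89% and 15.1% were called at these times. The ZT20 difference was called without any of 6 single libraries (DRF ZT4 replicate 1, DRF ZT8 replicate 3, DRF ZT16 replicate 1, DRF ZT20 replicate 4, NRF ZT8 replicate 1 or NRF ZT20 replicate 3), with adjusted p from 0.03 to 0.0499. The ZT16 difference was called without DRF ZT16 replicate 1 (adjusted p = 0.0409). Over the day the regimens' mean levels of Nppb differed by -0.1 on the log2 scale in the cosine model (SE 0.15, 95% interval -0.4 to 0.2), and by -0.27 as the plain average of the 7 ZT differences (SE 0.13, adjusted p = 0.102, limma). The value depended on single times, being -0.36 without ZT4, where it was called (adjusted p = 0.0438), and 0.2 without ZT8. ZT24 and ZT0 differed in no gene of the 6 under either regimen (limma, 0 called, 0.0576% of all genes called under NRF and 0.425% under DRF). At an unadjusted p under 0.05 this pair of times differed in 3 of the 12 tests (Nppa, Myl7 and Myl4, under NRF). These 3 genes deviate together, and the share of all genes at that cut was not counted.

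Of the variance of Nppb over the 56 libraries on the log2 scale, 74.3% lay between the 14 groups. The interaction of regimen and ZT held 41%, ZT alone 30.8% and regimen alone 2.56%. Among neighbours in the order of the 14 group means, 1 of 13 was further apart than the larger of their SDs, the step from DRF ZT20 (228 TPM) to the lowest group, NRF ZT12 (132 ± 51.3 TPM).

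**Figure D2:**
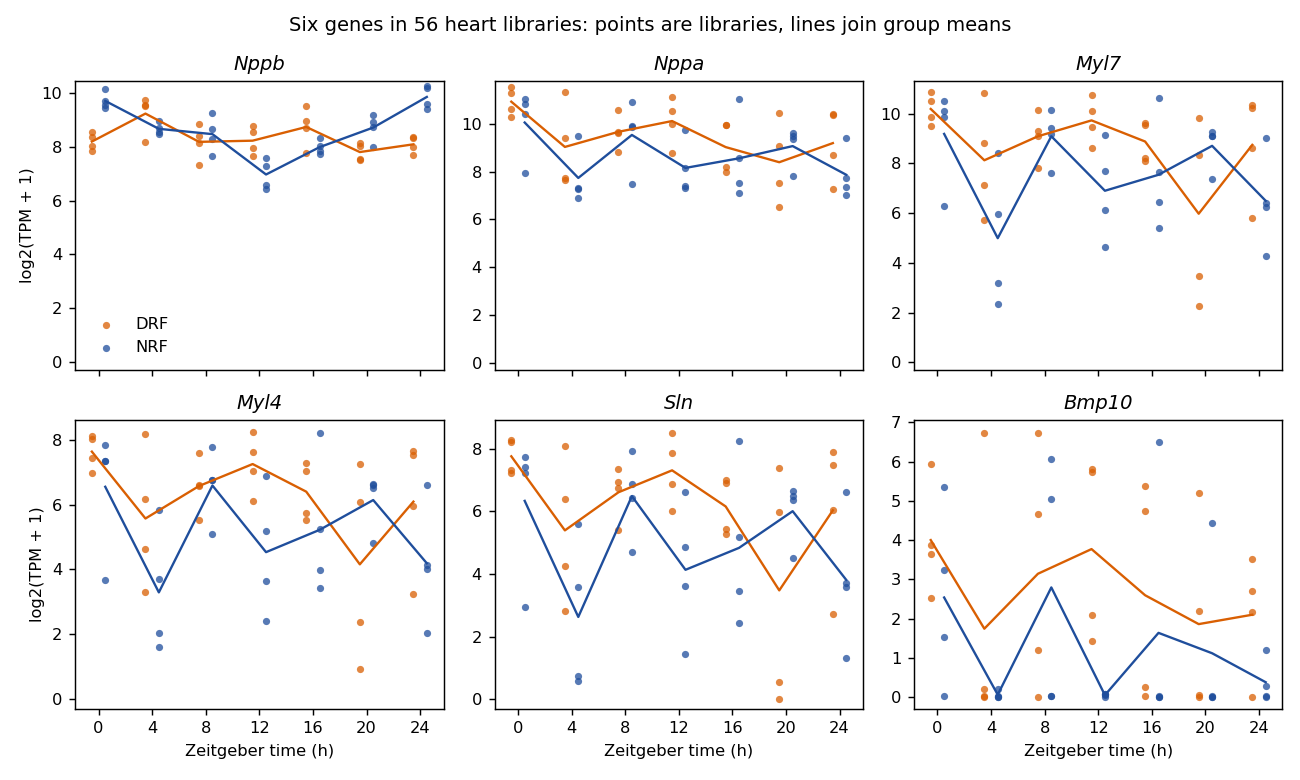
Level of each of the 6 genes as log2(TPM + 1) (vertical axis, own range per panel) against zeitgeber time in hours. Points are libraries of DRF (orange) and NRF (blue), and lines join the means of 4 libraries. In most groups the Nppb libraries lie closer together than those of the other genes, which spread over up to several log2 units.

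The other 5 genes varied mostly within groups. For Nppa, Myl7, Myl4 and Sln no neighbours in the order of the 14 group means were further apart than the larger of their SDs (0 of 13 each), the highest group being DRF ZT0 and the lowest NRF ZT4 in all 4 genes. The share of variance within groups was 61.3% for Nppa, 56.3% for Myl7, 59.3% for Myl4, 59.3% for Sln and 73.1% for Bmp10, against a median of 56.7% over all genes tested. Their size of spread set them apart from most genes. The within-group SD on the log2 scale was 1.28 for Nppa, 1.92 for Myl7, 1.72 for Myl4, 2.03 for Sln and 2.33 for Bmp10, against a median of 0.142 over all genes, and all 5 were among the 20 genes with the largest SD. Nppb had an SD of 0.5, with 433 genes above it.

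Myl7, the atrial regulatory light chain, ran from 3.81 to 1889 TPM under DRF (median 669) and from 4.11 to 1606 TPM under NRF (median 206). Within DRF ZT20 alone its 4 libraries held 3.81, 905, 10.2 and 322 TPM. Within NRF ZT16 they held 203, 1606, 41.7 and 85.7 TPM. The highest and lowest libraries thus differed 238-fold in the first group and 38.5-fold in the second, and 83.8-fold in NRF ZT4. Libraries under 100 TPM of Myl7 numbered 4 of 28 under DRF and 11 of 28 under NRF.

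Myl4, the atrial essential light chain, ran from 0.907 to 302 TPM and Sln from 0 to 359 TPM. In the same DRF ZT20 libraries Myl4 held 0.907, 150.2, 4.16 and 67 TPM, and Sln held 0, 166, 0.46 and 62.5 TPM. The order of these libraries was the same for the 3 genes. Nppa ran from 90.2 to 3004 TPM and held 90.2, 1408, 184 and 548 TPM there.

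Set against their group means, Nppa, Myl7, Myl4 and Sln deviated together. Pearson's r of the deviations over the 56 libraries was 0.99 for Myl7 with Myl4, 0.991 for Myl7 with Sln and 0.991 for Myl4 with Sln (Spearman's rho 0.991, 0.989 and 0.991). Nppa reached r of 0.912 with Myl7, 0.942 with Myl4 and 0.92 with Sln. The median over these 6 pairs was 0.966, and within the regimens r was not below 0.892 in any of the 6. These correlations describe libraries that share depth and scaling and are given with no p.

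On the linear scale the light chains and Sln kept a nearly fixed ratio. In the 41 libraries with more than 100 TPM of Myl7, the level of Myl4 was 0.145 to 0.208 times that of Myl7 (median 0.172), the level of Sln 0.129 to 0.224 times (median 0.164) and the level of Nppa 0.86 to 2.08 times (median 1.4). The median ratios under DRF and NRF were 0.173 and 0.171 for Myl4, 0.167 and 0.162 for Sln and 1.4 and 1.4 for Nppa. The ratios of Myl4 and Sln to Myl7 thus spanned less than a factor of 2 among these libraries, and had like medians in the regimens.

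**Figure D3:**
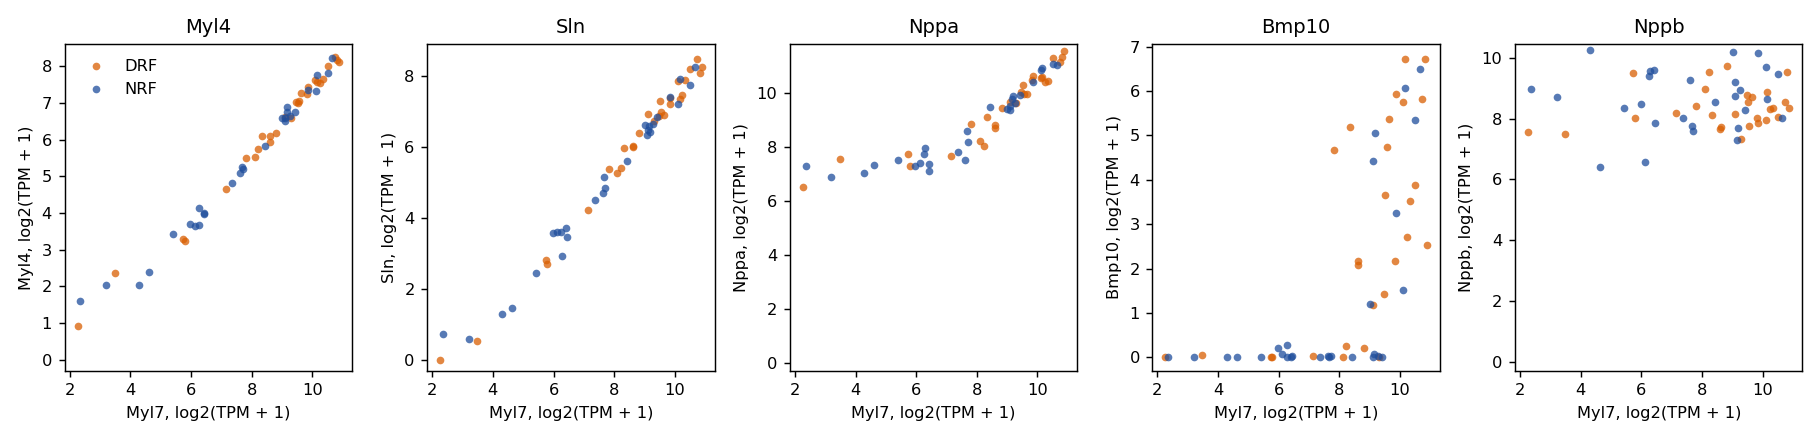
Levels of Myl4, Sln, Nppa, Bmp10 and Nppb (vertical axes) against Myl7 (horizontal axes), all as log2(TPM + 1), with 1 point per library (DRF orange, NRF blue). Myl4, Sln and Nppa rise with Myl7 along a band shared by the regimens, Bmp10 splits into libraries near 0 and libraries of up to 105 TPM, and Nppb shows no slope.

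Nppa and Nppb remained well above 0 where the light chains and Sln were low. In the 8 libraries with the least Myl7 (3.81 to 52.4 TPM, 3 of them DRF), Myl4 was at 0.907 to 9.76 TPM, Sln at 0 to 6.14 TPM and Bmp10 at 0 to 0.0369 TPM. In those same libraries Nppa still held 90.2 to 212 TPM and Nppb 84.8 to 1233 TPM. In the 8 libraries with the most Myl7 (1207 to 1889 TPM, 6 of them DRF), Nppa held 1334 to 3004 TPM and Nppb 262 to 749.8 TPM, inside the range of the first set. Over all libraries r of the TPM values with Myl7 was 0.977 for Nppa and 0.0204 for Nppb.

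Nppb deviated from its group means with little relation to the other 5 genes. Its r was 0.178 with Nppa, its neighbour on the chromosome, 0.172 with Myl7, 0.188 with Myl4, 0.18 with Sln and 0.0455 with Bmp10. Within the regimens these values were 0.158 to 0.26 under DRF and -0.115 to 0.12 under NRF.

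Markers of atrial muscle outside the 6 genes bear on the label. Of 18 such markers, 16 passed the filter on low levels, and 12 of the 16 had r over 0.5 with the mean deviation of Nppa, Bmp10, Myl7, Myl4 and Sln. Among all 13890 genes tested, 309 had r over 0.5 with it. Mybphl, an atrial relative of myosin-binding protein H, reached 0.981 (0.271 to 114 TPM over the libraries), the kinase genes Sbk3 and Sbk2 0.953 and 0.902, the secreted Dkk3 0.895, and Pam, the enzyme that amidates peptides and is a major protein of atrial granule membranes, 0.884. Kcnj3, a subunit of the acetylcholine-gated potassium channel, reached 0.773, and Kcna5 had r of -0.0803. The defining markers Sbk2, Mybphl, Kcnj3 and Dkk3 were above 0 in every library, and Hamp was at 0 in 2. The summed level of the 18 ran from 288 to 873 TPM under DRF (median 525) and from 261 to 879 TPM under NRF (median 398).

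Other cell types in the heart showed weaker relations to the same mean deviation. The highest r among 9 ventricular markers was 0.0859 (Irx3), and the mean of the list had r of -0.197. The list means gave 0.039 for sinus node and conduction genes, -0.0405 for endothelium, 0.169 for immune cells, 0.344 for fibroblasts, 0.377 for smooth muscle, 0.301 for epicardium and mesothelium and 0.414 for fat and lung. The fat and lung list held 5 tested genes, of which the brown fat gene Ucp1 reached 0.469 (0 to 78.9 TPM), and its 6 listed genes summed to 1.05 to 128 TPM under DRF and 1.69 to 54.7 TPM under NRF. The part of any of these tissues in the levels was not tested, and in bulk RNA fewer cells of a type and less RNA per cell cannot be told apart. Depth (r = -0.0827 for log2 reads) and the share of mitochondrial reads (r = -0.178) had little relation to the same deviation.

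**Figure D4:**
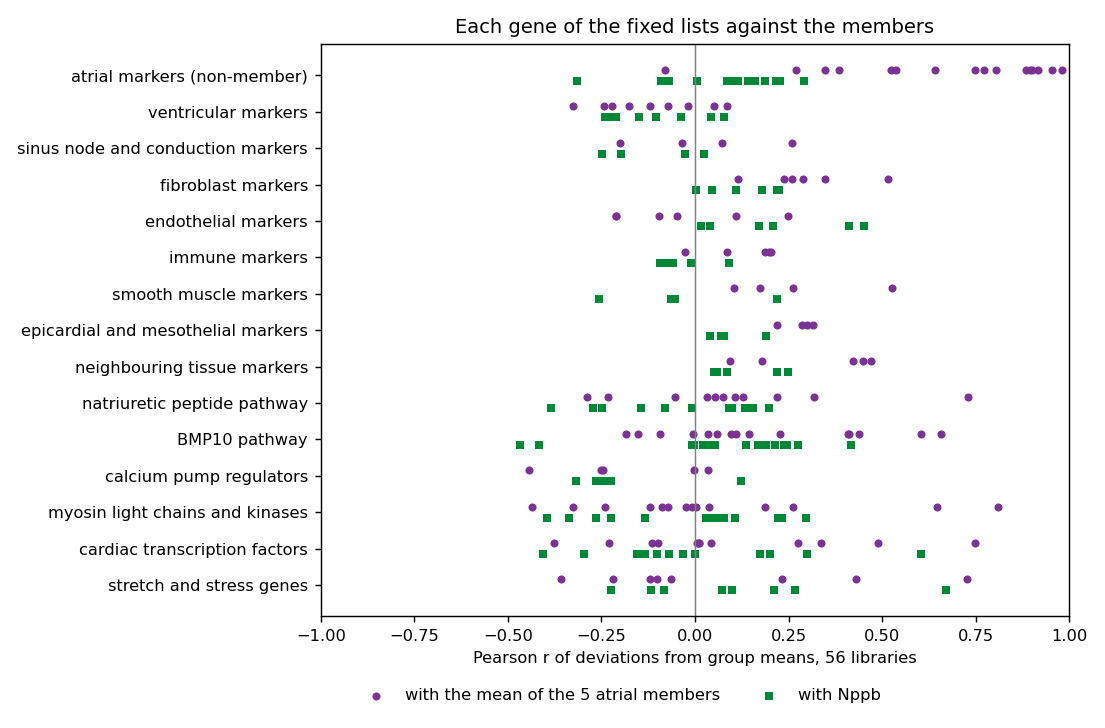
Pearson's r of each tested gene's deviations from its group means, over 56 libraries, with the mean of Nppa, Bmp10, Myl7, Myl4 and Sln (purple circles) and with Nppb (green squares). Each row is a list of genes, and most atrial markers lie to the right of 0.5 in purple while no ventricular marker exceeds 0.0859.

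The 10 genes outside the 6 with the deviations most like the mean of the 5 were Mybphl (r = 0.981), Tmem163 (0.954), Sbk3 (0.953), Mlana (0.941), Fgf12 (0.93), Lmntd1 (0.919), Stard10 (0.915), Cilp2 (0.911), Sbk2 (0.902) and Dkk3 (0.895). Their mean levels ran from 1.64 TPM (Lmntd1) to 55.7 TPM (Stard10), all far below Nppa (848 TPM) and Myl7 (574 TPM). Of the 13890 genes tested, 24 had r over 0.8 with this mean, Nppa, Myl7, Myl4 and Sln among them, and the median gene had r of 0.033.

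A different set was most like Nppb, namely Tnfrsf12a, the receptor of the cytokine TWEAK (r = 0.795), Creld2 (0.698), Rcan1, an inhibitor and target of calcineurin (0.671), Pdia6 (0.667) and Spsb4 (0.662). Creld2 and Pdia6 encode proteins of the endoplasmic reticulum that act in protein folding. These relations used deviations within groups and leave out time of day. In the tests over time all 5 were rhythmic under NRF by limma, where 37.2% of all genes were, and all 5 differed in rhythm between regimens, where 27.5% did. Tnfrsf12a had a log2 amplitude of 0.69 under NRF with a peak at ZT0.759 (adjusted p = 1.61e-05), and Rcan1 one of 0.65 with a peak at ZT0.436 (adjusted p = 3.19e-11). Under DRF these 2 were not called (adjusted p = 0.266 and 0.168), and both differed in rhythm between the regimens (adjusted p = 0.0415 and 1.02e-11). Creld2 (adjusted p = 0.000662), Pdia6 (3.99e-05) and Spsb4 (7.9e-05) differed in rhythm as well, and Pdia6 was also called under DRF, with its peak at ZT8.35 against ZT23.9 under NRF.

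Bmp10 behaved in part like the other atrial genes and in part apart from them. Its levels lay between 0 and 105 TPM. Under DRF they had a median of 4.15 TPM, with 12 of 28 over 10 TPM and 9 under 1 TPM. Under NRF they had a median of 0.0261 TPM, with 5 of 28 over 10 TPM and 20 under 1 TPM. No read was found in 4 DRF and 8 NRF libraries. Within DRF ZT4 the 4 libraries held 0.0267, 105, 0 and 0.152 TPM, and within NRF ZT16 they held 0, 89.7, 0 and 0.027 TPM. NRF ZT12 was the 1 group with every library under 0.1 TPM.

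**Figure D5:**
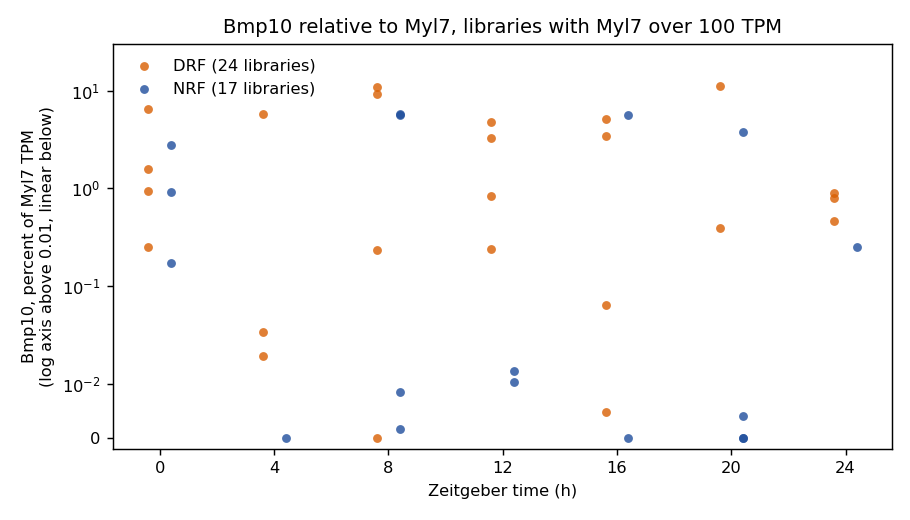
Bmp10 as a percentage of the Myl7 level (vertical axis, logarithmic above 0.01% and linear below) against zeitgeber time in hours, for the 24 DRF (orange) and 17 NRF (blue) libraries with more than 100 TPM of Myl7; some points at 0 coincide. Values reach from 0 to 11.1% within libraries that all contain ample Myl7.

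The deviations of Bmp10 had r of 0.652 with Nppa, 0.547 with Myl7, 0.595 with Myl4 and 0.563 with Sln, all below the lowest of the 6 pairs among those 4 genes. Its ratio to Myl7 was not fixed. In the 41 libraries with over 100 TPM of Myl7, Bmp10 was between 0 and 11.1% of the Myl7 level, over 1% in 15 and under 0.1% in 14. DRF ZT0 replicate 2 held the most Myl7 of the series (1889 TPM) and 4.77 TPM of Bmp10, and DRF ZT4 replicate 2, with a like level of Myl7 (1800 TPM), held 105 TPM. A low Bmp10 was thus found with low Myl7 and also with high Myl7, while the 17 libraries with over 10 TPM of Bmp10 all had at least 224.6 TPM of Myl7.

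Chosen after its values were seen, the list of genes most like Bmp10 in their deviations was Cd207 (r = 0.91), Cacna2d2 (0.884), Cxcl13 (0.871), Hamp (0.837) and Sfrp5 (0.836). Hamp, which encodes the iron hormone hepcidin, was on the list of atrial markers and had a higher r with Bmp10 than with the mean of the 5 genes (0.804). Vsnl1, on the sinus node list, had r of 0.705 with Bmp10 at a mean of 0.351 TPM, which was under the filter, so it was not tested.

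Mean levels of the atrial genes over the day lay above those of NRF under DRF, but in none of the 4 genes tested did the difference pass the threshold. The DRF minus NRF difference on the log2 scale was 0.79 for Nppa (SE 0.34, 95% interval 0.13 to 1.45, adjusted p = 0.0766), 1.16 for Myl7 (SE 0.54, adjusted p = 0.101), 1.07 for Myl4 (SE 0.47, adjusted p = 0.0865) and 1.26 for Sln (SE 0.56, adjusted p = 0.086). The group mean on the log2 scale was higher under DRF at 6 of 7 ZTs for Nppa and Sln and at 5 of 7 for Myl7 and Myl4, and the group mean in TPM at 4 of 7 for Nppa and Sln and at 5 of 7 for Myl7 and Myl4. For Bmp10 the difference was 1.58 (SE 0.6), with a higher group mean at 7 of 7 ZTs on the log2 scale and at 6 of 7 in TPM, as a description. The regimens' Bmp10 libraries did not overlap at ZT12 (1.69 to 55.4 TPM under DRF and 0 to 0.0592 TPM under NRF), nor did those of 13.5% of all genes, and this belongs to the difference for which the gene was chosen. Over all genes, 26% were called in this test, 1.67% higher and 24.3% lower under DRF, and the median difference was -0.05.

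With Nppb included, 0 of 5 tested members had a called difference in mean level (limma). At an unadjusted p under 0.05 the number was 4, in genes that deviate together, and the share of all genes at that cut was not counted. The count of called genes depended on single libraries. It was 4 without DRF ZT20 replicate 1, the library with the least Myl7, and 1 without DRF ZT20 replicate 3 (Sln) or NRF ZT16 replicate 2 (Nppa). It was also 4 without all libraries of ZT20 or of ZT8. Of the markers on the atrial list, 4 of 16 were called higher and 0 lower under DRF (1.67% and 24.3% of all genes), with a median difference of 0.13, and these 4 were Sbk2 (0.41, adjusted p = 0.0327), Sbk3 (0.67, adjusted p = 0.048), Tbx5 (0.23, adjusted p = 0.0121) and Chrm2 (0.14, adjusted p = 0.0459). Sbk2 and Sbk3 deviated with the atrial members (r = 0.902 and 0.953), so their tests are not independent of the choice made after the Bmp10 difference was seen.

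When the mean of the other atrial members was a covariate, the regimen difference of each of the 4 genes fell to near 0 and changed sign, to -0.02 for Nppa, -0.15 for Myl7, -0.12 for Myl4 and -0.11 for Sln. That of Bmp10 fell to 0.74. With the level of Mybphl as a covariate, an alternative added after the data were seen, the values were 0.02 for Nppa, -0.1 for Myl7, -0.05 for Myl4, -0.06 for Sln and 0.71 for Bmp10. These covariates deviate with the 4 genes almost entirely, so a fall toward 0 is likely in such fits and is no test of a cause. It was not fixed in advance at each time, since Myl7 at ZT20 was lower under DRF in both fits (-1.04 with Mybphl and -1.49 with the other members).

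Over time of day the 5 atrial genes had no called 24-h rhythm. Under NRF the log2 amplitudes were 0.15 for Nppa, 0.63 for Myl7, 0.43 for Myl4, 0.5 for Sln and 0.03 for Bmp10, with adjusted p from 0.685 to 0.999. Under DRF they were 0.37, 0.77, 0.58, 0.8 and 0.4, with adjusted p from 0.51 to 0.846. The standard errors were 0.37 to 0.63, several times those of Nppb (0.13 and 0.18), so a rhythm in these genes could go uncalled at this spread. The smallest amplitude that could be called was not tested. In the test of any difference among ZTs 1 of 6 genes was called under NRF (31.6% of all genes) and 1 of 6 under DRF (35.8% of all genes), in each case Nppb.

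Myl7 was near the threshold in that test under NRF, with an adjusted p of 0.059 and a range of group means of 4.19 on the log2 scale. With a replicate block it was called (adjusted p = 0.0389, limma). Its NRF means were lowest at ZT4 (105 ± 162 TPM, SD, n = 4) and highest at ZT0 (890.0 ± 585 TPM). The count under NRF became 3, with Myl7 and Myl4, without NRF ZT0 replicate 3 or NRF ZT4 replicate 2. It became 2, with Myl7, without any of 8 others (DRF ZT4 replicate 2, DRF ZT20 replicates 1 and 2, DRF ZT24 replicate 2, NRF ZT8 replicate 1, NRF ZT12 replicate 2, NRF ZT16 replicate 2 and NRF ZT24 replicate 4). Under DRF it became 3, with Myl7 and Sln, without DRF ZT20 replicate 2. At single ZTs no regimen difference in the 4 tested atrial genes was called, and Myl7 at ZT20 was called without DRF ZT20 replicate 2.

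With a covariate that followed the shared level, the calls over time of day of Nppa, the light chains and Sln depended on the covariate chosen. With the mean of 16 atrial markers as a covariate, Nppa (log2 amplitude 0.47, adjusted p = 0.0029), Myl7 (0.65, 0.0234), Myl4 (0.51, 0.015) and Sln (0.59, 0.0365) were called rhythmic under NRF, where 37.7% of all genes were. With Mybphl, Myl7 (0.42, adjusted p = 0.0216), Myl4 (0.27, 0.00122) and Sln (0.31, 0.00958) were called, with fitted peaks between ZT19.7 and ZT20.6, and Nppa was not (adjusted p = 0.0934). In the same fit these 3 genes were lower under DRF at ZT20, by -1.04 for Myl7 (adjusted p = 0.00502), -0.45 for Myl4 (adjusted p = 0.0369) and -0.72 for Sln (adjusted p = 0.0137). Shares of all genes called were not counted in the Mybphl fit, nor at ZT20 with any covariate. Without a covariate 15.1% of all genes were called at ZT20. With the mean of the other atrial members none of the 5 was called rhythmic, and of them Myl7 alone was called at ZT20 (-1.49, adjusted p = 0.0249), as it was with the 16 markers (-1.49, adjusted p = 0.0497). DRF ZT20 included the libraries with the lowest and the fourth-lowest Myl7 of the series (3.81 and 10.2 TPM), levels near which the pseudocount of 1 TPM weighs in the logarithm.

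Genes that process, receive and clear the natriuretic peptides were described from a list of 11 tested genes. Of these, 8 had a called rhythm under NRF (37.2% of all genes did), 5 had one under DRF (32.3% of all genes) and the rhythm of 4 differed between regimens (27.5% of all genes), with a median log2 amplitude under NRF of 0.17 against 0.1 over all genes. Corin, the protease that cuts the Nppa precursor, peaked at ZT15.5 under NRF and ZT20.7 under DRF (log2 amplitudes 0.22 and 0.29, difference in rhythm adjusted p = 0.000375). Over the day 0 of the 11 were higher and 3 lower under DRF, near the 24.3% of all genes called lower. Furin, which cuts the Nppb precursor, was lower by -0.12 (adjusted p = 0.009), as were Pcsk6, which activates corin (-0.21, adjusted p = 0.000168), and Npr1, the receptor (-0.11, adjusted p = 0.0249). Prkg1, the kinase that responds to the cyclic GMP that NPR1 makes, moved its peak from ZT10.6 under NRF to ZT2.82 under DRF (adjusted p = 6.84e-10). Npr3, the clearance receptor, was not rhythmic (adjusted p = 0.0564 under NRF), and its r with the mean deviation of the 5 atrial genes was 0.729.

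Among 15 tested genes of BMP10 signalling, 7 had a called rhythm under NRF and 3 under DRF, against 37.2% and 32.3% of all genes. The rhythm of 2 differed between regimens (27.5% of all genes), and over the day 0 were higher (1.67%) and 2 lower (24.3%) under DRF. The 2 lower genes were the receptor Acvrl1 (-0.16, adjusted p = 0.00555) and its partner Eng, endoglin (-0.15, adjusted p = 0.0382), both of which are made by endothelium, whose markers were called lower in 5 of 6 cases (24.3% of all genes were). The transcriptional targets Id1 (-0.11, adjusted p = 0.146) and Id3 (-0.1, adjusted p = 0.178) were not called. Tcap, a sarcomere protein reported to bind BMP10, had the widest rhythm of the list, with a log2 amplitude of 1.11 under NRF and 0.41 under DRF (difference adjusted p = 1.73e-08). Smad6 and Id2 deviated with Bmp10 (r = 0.604 and 0.604), and Id1 did not (0.0162).

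Of the other light chain and myosin genes, 6 of 14 had a called rhythm under NRF and 2 had one under DRF, against 37.2% and 32.3% of all genes. The ventricular Myl2 (5729 to 10132 TPM) and Myl3 (4725 to 6765 TPM) were not called in either regimen, and their deviations had r of -0.0723 and -0.325 with the mean of the 5 atrial genes. Myl1, a skeletal and fetal atrial essential chain, had r of 0.809 at 23.7 to 69.1 TPM. The light chain kinases Mylk3 and Mylk4 were called under both regimens and differed in rhythm (adjusted p = 3.58e-07 and 0.00781). Among 5 tested regulators of the calcium store, 3 had a called rhythm under NRF, 1 under DRF and 4 a different rhythm between regimens, against 37.2%, 32.3% and 27.5% of all genes. Pln was rhythmic under NRF and DRF (adjusted p = 0.000192 and 0.0468) and had r of -0.245 with the atrial mean, so the ventricular counterpart of sarcolipin did not share its spread. Atp2a2, the pump itself, was the 1 of 5 called lower under DRF (24.3% of all genes), by -0.15 (adjusted p = 0.00174).

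In the list of cardiac transcription factors, 6 of 12 had a called rhythm under NRF and 7 under DRF, and the rhythm of 7 differed between regimens, against 37.2%, 32.3% and 27.5% of all genes. Srf, the serum response factor, had the highest r of this list with Nppb (0.603), peaked at ZT22.4 under NRF and ZT6.86 under DRF (log2 amplitudes 0.32 and 0.16) and differed in rhythm (adjusted p = 2.25e-06). Gata4 (r of 0.3 with Nppb) peaked at ZT1.96 and ZT4.03 with no called difference in rhythm (adjusted p = 0.177). Of 10 tested stretch and stress genes, the peptides included, 5 had a called rhythm under NRF and 2 under DRF, and 5 differed in rhythm, against the same shares of all genes. In this list Ankrd1 was called rhythmic under NRF with a peak at ZT7.44 (adjusted p = 0.00179), and Acta1, skeletal actin, was lower under DRF by -0.63 (adjusted p = 0.000533). Their r with Nppb was 0.0725 and -0.0824. Of the others on this list Rcan1 reached 0.671, Xirp1 0.267 and Xirp2 0.211, and the mean of the list, which includes Nppb itself, had r of 0.495.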

How the data were processed

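The authors aligned reads to mm10 and counted them per gene, and HISAT2 2.0.5 and featureCounts 1.5.0-p3 are named in the submitters' processing notes. The values deposited as TPM were not linear. They fell on steps of a library constant times the logarithm of depth-scaled reads, divided by gene length, and 99.9996% of the 1192348 values tested gave whole reads within 0.1 read. Linear TPM was recomputed from those reads, where a linear TPM had been assumed in the plan. The recovery was tested on simulated data. Values of log2(TPM + 1) from genes whose mean reached 1 TPM were fitted with limma 3.58.1 (R 4.3.3), with Benjamini-Hochberg adjustment over 13890 genes. A 24-h cosine and sine fit stood in for MetaCycle, ZT0 and ZT24 counting as 1 phase. Libraries were grouped by regimen and ZT, and none was left out. Named genes were the 6 members, list genes past a test or defining a list, and the 10 and 5 genes most like the atrial members and Nppb. Members and lists were chosen with earlier results of these data known. Alternatives covered the pseudocount, filter, scaling, deposited values, voom, covariates, a replicate block and leaving out each ZT or library. The libraries held 29.5 M to 53.1 M recovered reads, and no molecular identifiers were used.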

Additional observations from a re-analysis of the deposited data

Results flagged for a closer look

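In 13 of the 84 sets of 4 libraries (6 genes in 14 groups), 1 library stood apart from the other 3 by Dixon's criterion at the 95% level. Chance gives about 1 in 20 such sets, and sets of genes that deviate together are not independent.

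NRF ZT0 replicate 3 was low in 3 genes, with 76.7 TPM of Myl7 (others 925 to 1453), 11.8 TPM of Myl4 (others 161 to 226) and 6.72 TPM of Sln (others 149 to 214). NRF ZT20 replicate 3 was low in 4 genes, with 223 TPM of Nppa (others 659.7 to 785), 164 TPM of Myl7 (others 546 to 616), 27.2 TPM of Myl4 (others 90.4 to 98.2) and 21.8 TPM of Sln (others 81.3 to 100.6). NRF ZT4 replicate 2 was high in Nppa (716 TPM, others 117 to 157).

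Bmp10 was high in 1 library of 4 groups. It held 105 TPM in DRF ZT4 replicate 2 (others 0 to 0.152), 89.7 TPM in NRF ZT16 replicate 2 (others 0 to 0.027), 20.5 TPM in NRF ZT20 replicate 4 (others 0 to 0.0251) and 0.16 TPM in NRF ZT4 replicate 3 (others 0 to 0.0146). Nppb was low in DRF ZT4 replicate 1 (288 TPM, others 732 to 856).

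The rhythm of Nppb differed between the regimens in the interaction test, with a difference of 1.22 on the log2 scale (adjusted p = 5.72e-05, limma).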

How the results depend on the processing

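Over 29 results, 18 other settings and 56 fits without 1 library, 2000 of 2067 comparisons were unchanged, meaning the same direction and side of the threshold for tested values, at most 1.5 times apart for counts, within 1 SE for Bmp10's mean difference and within 0.1 for correlations. Part of this total was fixed in advance. The rhythm fit of 1 regimen cannot change when a library of the other is left out, and an amplitude cannot change sign. Nppb stayed the 1 gene called rhythmic under NRF without any 1 library (count 1 to 1), with 0 to 0 under DRF and 1 to 1 for a different rhythm. Without 1 library the count for mean level was 0 to 4, for pairs of gene and ZT 2 to 5 (3 with all), for any difference among ZTs 1 to 3 under NRF and 0 to 3 under DRF, and for ZT24 against ZT0 0 to 0. With 16 atrial markers as a covariate, 5 genes were rhythmic under NRF, 4 differed in rhythm and 2 differed among ZTs under NRF. With Mybphl, chosen after seeing the data, these counts were 4, 4 and 4, with 6 pairs of gene and ZT, and mean differences turned to -0.0965 (Myl7), -0.0513 (Myl4) and -0.0561 (Sln). With the mean of the other atrial members they turned to -0.0227 (Nppa), -0.146 (Myl7), -0.117 (Myl4) and -0.105 (Sln). The share of all genes called with these covariates is given for rhythm under NRF with the 16 markers alone (37.7%). Without replicate 3 of NRF ZT0 and of NRF ZT20 together, also chosen after seeing the data, 3 genes differed among ZTs under NRF. The mean level count was 1 without ZT4 (Nppb), 4 without ZT8 and 4 without ZT20. Without ZT4, 0 genes differed among ZTs under DRF, without ZT20, 2 did under NRF, and without ZT8 the mean difference of Nppb was 0.203. The cause of these changes was not tested. The description of Bmp10's mean difference ranged from 0.552 with the marker covariate to 3.00 with voom. DRF and NRF libraries of the same ZT and replicate number deviated together (r over 0.1) in 1 of 28 pairs (median r -0.0325), which shows little pairing between the regimens. The same numbers at different ZTs were not compared. With a replicate block, 2 genes differed among ZTs under NRF (Nppb and Myl7), and no other count changed. Bmp10 had a median of 17.5 reads a library and 0 in 12, which limits the precision of its low values.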

Other observations

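None of the 10 genes most like the atrial members was called rhythmic under NRF or DRF (limma, 0 also at an unadjusted p under 0.05, against 37.2% and 32.3% of all genes). These genes were chosen for sharing the spread of the members within groups. Such spread makes a rhythm hard to call, so the 0 is no separate result. Of the 10, Sbk3 and Sbk2 were called higher in mean level under DRF (1.67% of all genes were). Cd207, Cxcl13, Cacna2d2 and Sfrp5, which followed Bmp10 and were chosen after their values were seen, had low mean levels of 1.75, 1.63, 1.3 and 4.53 TPM.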
